A study of Mus musculus with 3 samples.

Results

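The T cell receptor signalling cascade and its brakes were followed as 49 genes in mouse Tregs, the regulatory T cells that restrain immune responses, after exposure to inflammation. The genes were taken by symbol from a written list and run from the receptor chains to the NFAT transcription factors, with the enzymes and scaffolds that restrain the cascade beside them. Each symbol stood on 1 gene of the GENCODE M21 annotation, so 49 of 55536 annotated genes are described. Of these, 37 transmit the signal and are called activators here, and 12 are called brakes. Fyn, Themis, Sh2d2a and Cd6 are known to act in both directions and were placed on the side usually given first. Polyadenylated RNA was sequenced in 3 libraries, which the labels call technical replicates 1 to 3 of 1 biological replicate. The material was of 12 weeks of age, from 1 donor. The sources used here do not give the mouse strain, the genotype, the inflammatory treatment or the sorting gate. All 3 libraries therefore form 1 group, and the comparisons are between genes within libraries and between libraries. Errors are standard deviations (SD) over the 3 libraries and measure the spread between libraries, not between mice.

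In a T cell, the alpha and beta chains of the receptor bind antigen and sit in a complex with the CD3 chains and the zeta chain, whose tails are phosphorylated by the kinase Lck. Phosphorylated tails recruit the kinase Zap70, which phosphorylates the scaffolds Lat and Slp-76 (Lcp2), and these assemble phospholipase, Ras and adaptor branches. Calcium entry then activates calcineurin, which dephosphorylates NFAT. Phosphatases, the kinase Csk, ubiquitin ligases and diacylglycerol kinases act against these steps. In Tregs, receptor signals are known to be needed for suppressive function.

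The libraries held 35652707, 31665170 and 37810591 expected counts (reads shared out among genes by a model) in libraries 1, 2 and 3. Levels are given in TPM, a unit with a fixed total per library that corrects for transcript length. The Treg markers Foxp3, Il2ra, Ikzf2 and Ctla4 were all present, with means between 97.6 and 377 TPM. Markers of other immune cells were each below the Treg markers, the highest being Cd79b of B cells at 30.4 and Cd8b1 at 19.2 mean TPM. The 8 B cell markers summed to between 70.5 and 71.2 TPM, the 9 myeloid markers to between 2.00 and 6.18 TPM with Cd14 at 0 in every library, and the 4 natural killer cell markers to between 2.96 and 3.58 TPM. Cd8a and Cd8b1 summed to between 16.9 and 26.5 TPM, and 3 gamma delta receptor genes to between 9.02 and 13.9 TPM. Library 3 stood apart in holding 56788 TPM of 6 salivary gland secretory genes, against 4.91 and 11.0 TPM in libraries 1 and 2. In bulk RNA, fewer cells of a type and less RNA per cell cannot be told apart.

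Every gene of the cascade was expressed in every library. All 49 reached 1 TPM in all 3 libraries, a level that 23.2% of annotated genes reached. A mean of at least 100 TPM was found for 30 of the 49 genes, against 3.58% of annotated genes. The median over the 49 genes was 172 TPM, and the median over the 18253 genes that averaged 10 counts or more was 8.89 TPM. Their summed level was 20024.5, 20847 and 19433 TPM in libraries 1, 2 and 3. After TPM was rescaled without genes at least 50 times apart between libraries, the sums were 20185, 20981 and 20835. The 49 genes were chosen as parts of a T cell pathway, so high levels in T cells are a description.

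**Figure D1:**
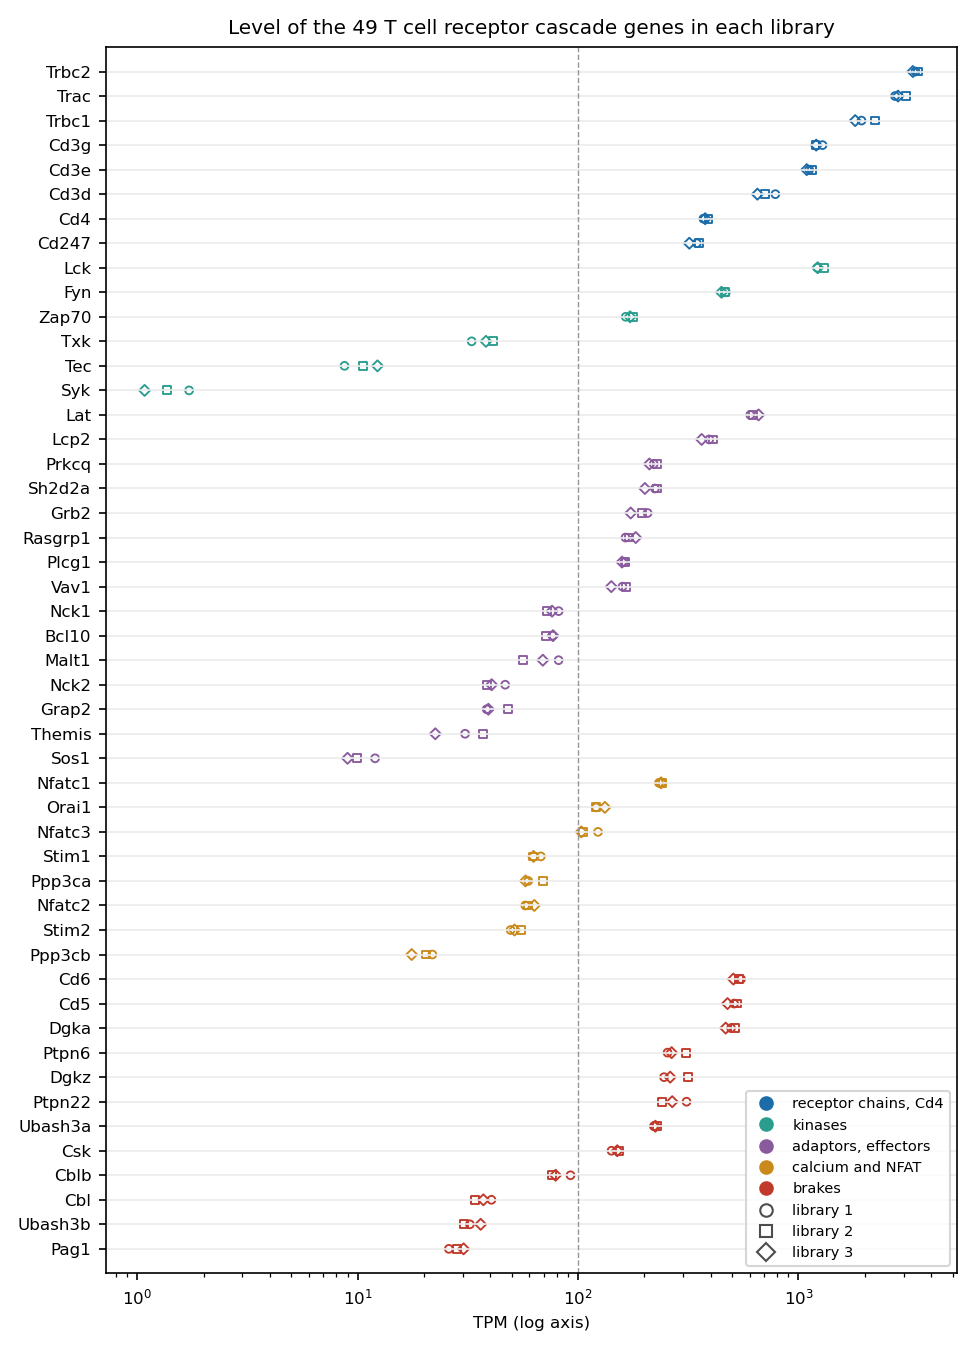
Level of each of the 49 cascade genes in TPM on a log axis, with 1 marker per library and genes grouped by role; the dashed line stands at 100 TPM. Receptor chains lie at the high end with Trbc2 at 3304 to 3498 TPM, Syk lies near 1 TPM, and the brakes run between Cd6 at 531 and Pag1 at 28.1 mean TPM.

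The receptor itself was the most abundant tier. The 8 genes for receptor chains and the co-receptor summed to 12055 ± 514 TPM (SD, n = 3) with a median of 1174 TPM, and all 8 were above 100 TPM. Trac, the alpha chain constant region, had 2744, 3080 and 2830 TPM in libraries 1, 2 and 3. Trbc2, the second beta chain constant region, had 3395, 3498 and 3304 TPM and stood at rank 17 of all genes. Trbc1, the first beta chain constant region, had 1932, 2232 and 1809 TPM. The ranges of Trbc2 and Trbc1 did not overlap, with a difference of 0.78 ± 0.12 in log2(TPM + 1), Trbc2 minus Trbc1 (SD, n = 3).

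The reads of these beta chain genes could be told apart over only part of their length. Their coding sequences on chromosome 6 of mm10 (the plus strand) differed at 23 of 518 bases. The first exon differed at 1 of 375 bases, and the longest run without a difference in it was 259 bases. The third exon, which lies at chr6:41547772-41547878 in Trbc2 and at chr6:41539229-41539335 in Trbc1, held 15 of the differences. It is shown because reads from it can separate the genes, with differing bases in capitals.
Trbc2: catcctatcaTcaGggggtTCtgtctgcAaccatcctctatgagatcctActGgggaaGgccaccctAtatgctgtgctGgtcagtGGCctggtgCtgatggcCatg
Trbc1: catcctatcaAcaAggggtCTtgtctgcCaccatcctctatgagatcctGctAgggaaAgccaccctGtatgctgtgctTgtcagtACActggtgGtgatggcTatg
The split of 5390 ± 314 TPM between them (SD, n = 3) therefore rests on the authors' counting model.

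The signalling chains were not level with each other. Cd247, the zeta chain that carries most of the activation motifs of the complex, was the lowest chain at 346, 355 and 320 TPM in libraries 1, 2 and 3. Cd3e had 1119, 1148 and 1090 TPM, which put the mean of Cd247 3.29-fold below that of Cd3e, with no overlap of ranges. Cd3g had 1286, 1196 and 1204 TPM and Cd3d had 786, 704 and 651 TPM. The difference of Cd3g minus Cd3d was 0.79 ± 0.09 in log2(TPM + 1) (SD, n = 3). In the authors' other count table, made against the GENCODE M4 annotation and divided here by gene length, Cd247 minus Cd3e shrank to -0.34, against -1.72 in TPM, and Cd3g minus Cd3d to 0.19. In library 1 the M4 counts of Cd247 and Cd3e were 1083 and 1292, against expected counts of 11882 and 35629. The M4 counts were thus compressed among abundant genes, which limits every M4 comparison of such genes given here. Cd247 shares 3007 exonic bases with Pou2f1 on the other strand, which had 20.6 TPM, and the sources used here do not say whether strand was used in counting. The co-receptor Cd4, which brings Lck to the receptor, had 371, 391 and 377 TPM.

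Of the kinases, Lck led. Lck, which phosphorylates the receptor tails, had 1217, 1307 and 1223 TPM in libraries 1, 2 and 3, and its range overlapped that of Cd3g. Fyn, a kinase of the same family with activating and restraining roles, had 469, 463 and 448 TPM. Lck was 2.72-fold higher than Fyn. Zap70, which docks on phosphorylated tails, had 165, 178 and 172 TPM, and was the median of the 49 genes. The difference of Lck minus Fyn was 1.44 ± 0.06 in log2(TPM + 1) (SD, n = 3), against 0.70 in M4 counts per kilobase and 0.72 in scaled counts without length correction.

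Lck transcripts started from both of its known promoters, which in the mouse are called distal and proximal, the proximal one being known chiefly from thymocytes. Lck-202, which starts at the distal first exon (chr4:129573515-129573641, minus strand), took 39.7%, 36.8% and 38.1% of Lck TPM in libraries 1, 2 and 3. Lck-208, which starts 15269 bases downstream at the proximal first exon (chr4:129558288-129558372), took 33.1%, 38.4% and 36.5%. The 3 annotated transcripts with the proximal start (Lck-201, Lck-206 and Lck-208) summed to 425, 534 and 463 TPM in libraries 1, 2 and 3, and the distal transcript had 483, 480 and 466 TPM. The ranges overlapped, and the distal start was higher in libraries 1 and 3. Lck-207, a retained intron fragment of 450 bases that starts 285 bases downstream of the proximal start, had 289 ± 11.1 TPM (SD, n = 3) and was counted with neither. The coding parts of Lck-202 and Lck-208 are 1527 and 1560 bases long. First exons of 127 and 85 bases carry the distinction, and reads per exon are not in the tables used here.

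Both RefSeq promoter windows of Lck (build GRCm38.p6, minus strand, 250 bases before to 50 after the start) are shown because both starts were used, with that of Cd247 (plus strand) beside them. Capitals mark CAGGAAGT or its reverse complement ACTTCCTG, letters that contain the core known from ETS factor binding.
Lck distal chr4:129573592-129573891: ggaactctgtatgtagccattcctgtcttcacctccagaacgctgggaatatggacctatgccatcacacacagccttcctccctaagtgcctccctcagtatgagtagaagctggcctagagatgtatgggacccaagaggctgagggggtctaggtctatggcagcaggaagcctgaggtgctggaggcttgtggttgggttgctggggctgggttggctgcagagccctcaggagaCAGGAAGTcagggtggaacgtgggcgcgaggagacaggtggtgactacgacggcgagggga
Lck proximal chr4:129558323-129558622: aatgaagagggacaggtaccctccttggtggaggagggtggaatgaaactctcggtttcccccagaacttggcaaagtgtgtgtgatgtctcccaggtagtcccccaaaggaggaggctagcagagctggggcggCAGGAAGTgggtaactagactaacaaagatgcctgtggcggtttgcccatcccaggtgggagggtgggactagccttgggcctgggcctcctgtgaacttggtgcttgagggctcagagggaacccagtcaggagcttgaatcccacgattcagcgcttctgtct
Cd247 chr1:165788431-165788730: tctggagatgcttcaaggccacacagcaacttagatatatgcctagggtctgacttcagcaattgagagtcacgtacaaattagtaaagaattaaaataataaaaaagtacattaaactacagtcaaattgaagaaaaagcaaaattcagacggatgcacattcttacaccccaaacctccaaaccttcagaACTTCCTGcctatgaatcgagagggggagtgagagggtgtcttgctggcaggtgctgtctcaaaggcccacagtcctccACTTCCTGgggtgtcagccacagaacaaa
Promoter windows were found for 39 of the 49 genes, 56 windows in all. The letters stood on either strand in 6 of these 56 windows (10.7%), against 3.33% of 32851 promoter windows of all genes. The windows belonged to Cd247, Cd3e, Dgkz, Ptpn6 and, on both promoters, Lck. The letters were chosen after the Lck and Cd247 promoters had been read, and the windows of these genes are among the 6. The comparison of shares is therefore partly set by that choice and is a description without a test.

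Fyn was mostly of the form known from T cells. The gene has a pair of mutually exclusive coding exons on chromosome 10 (plus strand), one used mainly in haematopoietic cells and the other mainly in the brain. The T cell exon lies at chr10:39529919-39530074 (156 bases) and the brain exon at chr10:39529437-39529601 (165 bases). Both are shown because their use separates the forms, and capitals mark runs of at least 5 bases that the aligned exons share in place.
Fyn T cell exon: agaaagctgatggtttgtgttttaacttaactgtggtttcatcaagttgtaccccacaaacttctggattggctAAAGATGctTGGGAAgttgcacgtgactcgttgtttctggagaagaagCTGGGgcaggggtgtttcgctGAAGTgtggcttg
Fyn brain exon: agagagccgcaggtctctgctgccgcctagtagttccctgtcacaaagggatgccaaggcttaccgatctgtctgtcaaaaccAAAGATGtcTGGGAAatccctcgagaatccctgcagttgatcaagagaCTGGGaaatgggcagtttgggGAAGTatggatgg
The exons were identical at 93 of 168 aligned positions. Transcripts with the T cell exon took 84.2%, 82.1% and 84.0% of Fyn TPM in libraries 1, 2 and 3. The transcript with the brain exon took 3.97%, 2.97% and 3.22%. Fyn-206, which skips both exons, took 9.46% ± 0.73 (SD, n = 3). The ranges of these shares did not overlap.

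**Figure D2:**
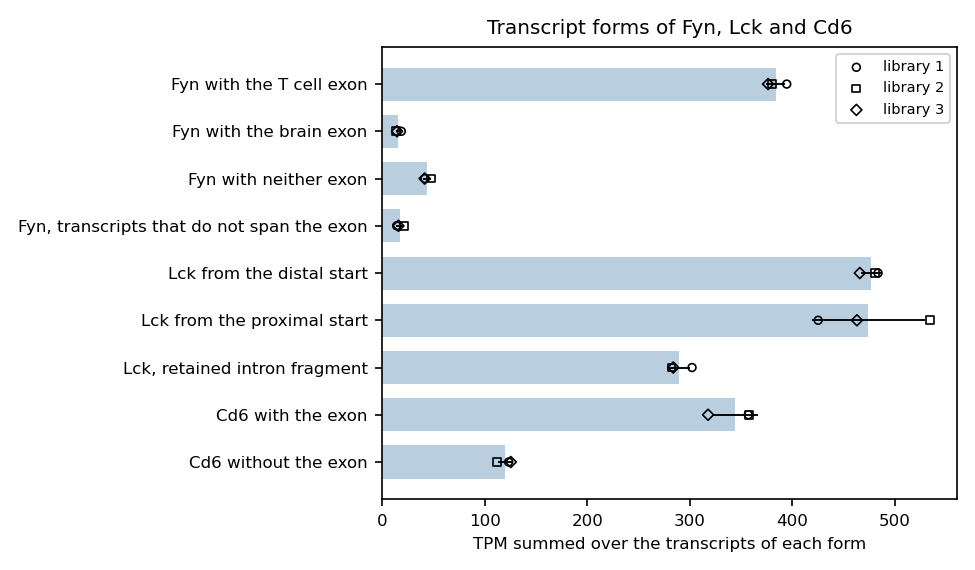
TPM summed over the annotated transcripts of each form of Fyn, Lck and Cd6, with bars for the mean, lines for the SD of 3 libraries and 1 marker per library. Fyn with the T cell exon stood at 376 to 394 TPM, against 13.8 to 18.6 TPM with the brain exon, and Lck from the proximal start at 425 to 534 TPM, a range that overlaps the 466 to 483 TPM from the distal start.

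The remaining kinases were low. Txk, a Tec family kinase of T cells, had 32.9, 41.0 and 38.2 TPM in libraries 1, 2 and 3. Tec, the founding member of that family, had 8.72, 10.6 and 12.3 TPM, so Txk was 3.55-fold higher than Tec. Txk minus Tec was 1.74 in log2(TPM + 1) and 2.39 over coding transcripts. Syk, the relative of Zap70 that B and myeloid cells use, had 1.72, 1.36 and 1.08 TPM from 185, 118 and 123 counts. Zap70 was 124-fold higher than Syk. Zap70 minus Syk was 6.18 in log2(TPM + 1), 6.87 with a pseudocount of 0.1 and 5.41 in scaled counts without length correction. The B cell markers summed to 70.5, 71.2 and 70.5 TPM in libraries 1, 2 and 3, and their part in the Syk and Tec levels was not tested. Which Syk transcript led differed between libraries, with Syk-201 at 65.1%, 0.00% and 0.61% of Syk TPM.

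Among adaptors and effectors, Lat stood highest. Lat, the membrane scaffold that Zap70 phosphorylates, had 604, 621 and 659 TPM in libraries 1, 2 and 3. Lcp2 (Slp-76), which joins it through Gads, had 394, 408 and 364 TPM. Gads itself, encoded by Grap2, had 38.5, 48.1 and 39.2 TPM and was the lowest part of that bridge. Grb2, the widely expressed relative of Gads that brings Sos to Lat, had 207, 195 and 173 TPM, which put Grap2 4.57-fold below Grb2. Grap2 minus Grb2 was -2.17 in log2(TPM + 1) and -0.31 in log2 of M4 counts per kilobase.

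The Ras activators of the cascade were far apart. Rasgrp1, which is activated by diacylglycerol, had 164, 170 and 183 TPM in libraries 1, 2 and 3. Sos1, which Grb2 carries, had 12.0, 9.96 and 9 TPM and was the lowest adaptor or effector. Plcg1, the phospholipase that makes diacylglycerol and inositol trisphosphate, had 162, 164 and 158 TPM. Vav1, the exchange factor for Rac, had 159, 165 and 142 TPM.

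Prkcq, the protein kinase C form of the T cell synapse, had 221, 228 and 211 TPM. Its partners downstream, Bcl10 and Malt1, which carry the signal to NF-kappaB, were lower. Bcl10 had 76.6, 71.5 and 77.0 TPM, and Malt1 had 81.6, 56.4 and 69.2 TPM, so that their ranges overlapped. Bcl10 minus Malt1 was 0.13 in log2(TPM + 1) and turned to -0.78 without length correction and to -0.37 in M4 counts per kilobase. The actin adaptors Nck1 and Nck2 had means of 76.7 ± 4.73 and 42.0 ± 4.22 TPM (SD, n = 3 each). Nck1 minus Nck2 was 0.86 in log2(TPM + 1) and 1.65 in M4 counts per kilobase, and it turned to -0.067 without length correction. Sh2d2a, the Lck-binding adaptor TSAd, had 223, 227 and 201 TPM. Themis, a T cell adaptor best known from thymic selection, had 30.7, 36.9 and 22.5 TPM and was lowest in library 3.

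The calcium and NFAT arm was the lowest tier by median, at 63.3 TPM, with 3 of its 8 genes above 100 TPM. Orai1, the pore of the calcium channel, had 121, 121 and 132 TPM in libraries 1, 2 and 3. Its sensors in the endoplasmic reticulum, Stim1 and Stim2, had 64.3 ± 3.03 and 52.0 ± 2.88 TPM (SD, n = 3 each). The ranges did not overlap, but in M4 counts per kilobase Stim1 minus Stim2 turned to -0.49 in log2. Of the calcineurin catalytic subunits, Ppp3cb had 21.8, 20.4 and 17.6 TPM, and Ppp3ca had 59.4, 69.5 and 57.7 TPM. Ppp3cb was 3.12-fold below Ppp3ca.

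Nfatc1 was the main NFAT transcript. Nfatc1 had 233, 242 and 238 TPM in libraries 1, 2 and 3, Nfatc3 had 123, 105 and 103 TPM, and Nfatc2 had 57.6, 59.4 and 63.3 TPM. The order was the same in every library and no ranges overlapped. Nfatc1 was 3.95-fold above Nfatc2 and 2.15-fold above Nfatc3. Nfatc1 minus Nfatc2 was 1.96 in log2(TPM + 1), 1.30 in M4 counts per kilobase and 3.17 over coding transcripts. Nfatc1 minus Nfatc3 was 1.10, against 0.32 in M4 counts per kilobase, and Nfatc3 minus Nfatc2 was 0.86, against 1.76 over coding transcripts. Within Nfatc1, Nfatc1-206 took 48.7% ± 3.38 of TPM, Nfatc1-202 took 25.7% ± 1.08 and Nfatc1-203 took 21.2% ± 1.85 (SD, n = 3 each). In posterior mean TPM the share of Nfatc1-203 fell to 15.1%.

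The 12 brakes had a median of 249 TPM, and 8 of them were above 100 TPM. The surface receptors Cd5 and Cd6, scavenger receptor family members that dampen receptor signals, led with 510, 524 and 477 TPM for Cd5 and 549, 539 and 507 TPM for Cd6 in libraries 1, 2 and 3. Their ranges overlapped. The diacylglycerol kinases, which remove the activator of Rasgrp1, had 494, 514 and 467 TPM for Dgka and 246, 316 and 262 TPM for Dgkz. Dgka was 1.79-fold above Dgkz, but in M4 counts per kilobase Dgka minus Dgkz turned to -0.052 in log2.

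The phosphatases Ptpn6 (Shp-1), which acts on Zap70 and Lck among others, and Ptpn22, which works with Csk on Lck, were level. Ptpn6 had 255, 309 and 266 TPM in libraries 1, 2 and 3, and Ptpn22 had 311, 241 and 267 TPM. Their difference was 0.02 ± 0.32 in log2(TPM + 1) (SD, n = 3) and changed sign between libraries. Csk, which phosphorylates the inhibitory tail of Lck, had 142, 154 and 151 TPM. Pag1, the membrane scaffold that holds Csk, was the lowest brake at 25.9, 28.3 and 30.2 TPM.

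Of the paired ubiquitin ligases, Cblb had 92.4, 76.1 and 79.1 TPM and Cbl had 40.5, 34.0 and 37.2 TPM in libraries 1, 2 and 3. Cblb, whose loss is known to free T cells from the need for costimulation, was 2.22-fold above Cbl. Over coding transcripts Cblb minus Cbl was 0.33 in log2(TPM + 1), against 1.13 over all transcripts. The Sts proteins, phosphatases that dephosphorylate Zap70 and Syk, were further apart. Ubash3a (Sts-2), which is largely confined to lymphoid cells, had 221, 228 and 224 TPM, and Ubash3b (Sts-1), which is broadly expressed, had 32.3, 30.4 and 36.2 TPM. Ubash3a was 6.81-fold above Ubash3b over all its transcripts. Over transcripts annotated as coding, the difference shrank to 0.84 in log2(TPM + 1), against 2.73 over all transcripts. It was 1.99 in M4 counts per kilobase and 2.04 without length correction.

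The share of TPM on transcripts annotated as coding was then read for all 49 genes, and its median was near that of other genes. Of the 49 genes, 5 had less than 50% of their TPM on coding transcripts, against 15.3% of 10494 detected protein-coding genes. The median share over the 49 genes was 85.7%, and over the detected protein-coding genes it was 86.5%. The 5 genes were Ubash3a at 26.1% ± 1.36, Pag1 at 27.2% ± 3.05, Nfatc2 at 42.5% ± 4.32, Ptpn22 at 48.2% ± 2.13 and Malt1 at 49.4% ± 2.86 (SD, n = 3 each). Tec had 50.4% ± 13.6 and varied most between libraries.

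The leading transcript of a gene by mean share was annotated as non-coding in 3 of the 49 genes, against 12.8% of 10494 detected protein-coding genes. These 3 were brakes, and in library 1 the activator Nfatc2 joined them, as it did in the mean without library 2. Ubash3a-204, a processed transcript, took 54.6%, 55.0% and 51.8% of Ubash3a TPM in libraries 1, 2 and 3. Cblb-202, which retains an intron, took 42.3%, 45.7% and 44.1% of Cblb TPM. Pag1-205, a retained intron fragment of 625 bases, took 41.6%, 49.5% and 47.7% of Pag1 TPM. Pag1-204, a coding transcript of 8256 bases, took 20.1% ± 5.01 (SD, n = 3). Among the activators, Sos1-202, with a retained intron, took 47.0% ± 1.17 of Sos1 TPM (SD, n = 3). Ptpn22-204, which is annotated to be removed by nonsense-mediated decay, took 24.3% ± 1.17 of Ptpn22 TPM (SD, n = 3).

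**Figure D3:**
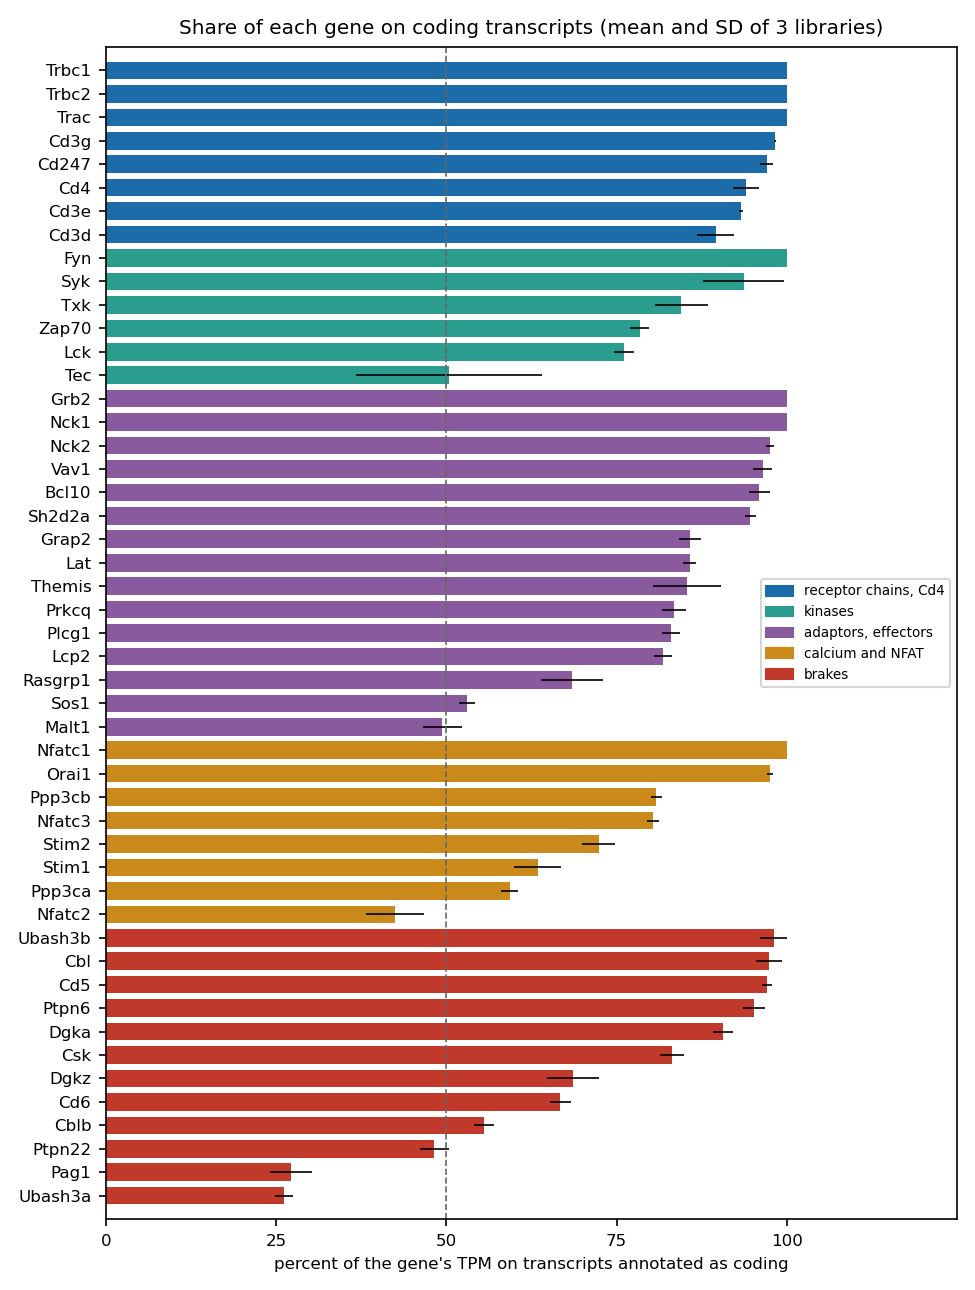
Percent of each gene's TPM that lay on transcripts annotated as coding, with bars for the mean and lines for the SD of 3 libraries, grouped by role; the dashed line stands at 50%. Ubash3a and Pag1 are the lowest bars at 26.1% and 27.2%, and every receptor chain lies at or above 89.6%.

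Cd6 carried an optional coding exon. The exon of 117 bases lies at chr19:10792828-10792944 (minus strand) and keeps the reading frame. It is shown because it separates the main Cd6 transcripts, with its 3 in-frame tyrosine codons in capitals.
Cd6 optional exon: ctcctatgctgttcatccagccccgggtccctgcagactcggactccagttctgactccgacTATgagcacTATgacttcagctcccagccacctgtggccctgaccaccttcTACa
Transcripts with the exon took 65.1%, 66.3% and 62.7% of Cd6 TPM in libraries 1, 2 and 3. Cd6-202, which joins the flanking exons without it, took 22.5%, 20.8% and 24.7%. The first share includes 20.6% ± 1.33 for Cd6-201 (SD, n = 3), which retains an intron.

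Set side by side, activators did not stand above brakes. The activator median was 162 TPM and the brake median 249 TPM. The median log2(TPM + 1) of activators minus that of brakes was -0.52, -0.50 and -0.61 in libraries 1, 2 and 3, with a mean of -0.54 ± 0.06 (SD, n = 3). The sign was the same in every library. Over coding transcripts alone, an alternative chosen after seeing the data, the difference was 0.074 ± 0.068 (SD, n = 3). That mean is close to its own SD, so activators and brakes were about level there. With means over genes in place of medians, over all transcripts, the difference was -0.072.

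Activators and brakes were then compared gene by gene, in pairs where the brake need not act on the activator directly. Of 28 pairs in all, 25 were apart, meaning 1 sign in every library, no overlap of ranges, and no overlap of the authors' TPM bounds in any library. With 3 libraries an exact permutation test that flips signs, two-sided, cannot go below p = 0.25 (adjusted p = 0.269 over the 28 pairs), so no pair could pass 0.05. All 9 activator and brake pairs were apart, with the activator higher in 6 and the brake higher in 3. The share of other gene pairs that would be apart was not counted, so these counts only describe the chosen pairs.

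Lck exceeded Csk 8.39-fold and Ptpn22 4.58-fold. Lat exceeded Pag1 22.3-fold, Vav1 exceeded Cbl 4.17-fold, Cd3e exceeded Cd5 2.22-fold and Plcg1 exceeded Cblb 1.96-fold. In M4 counts per kilobase, Lck minus Ptpn22 turned to -0.035 and Cd3e minus Cd5 to -0.77 in log2, and Lck minus Csk shrank to 0.77, against 3.06 in TPM. Those counts were 7.34% of the expected count for Lck and 3.66% for Cd3e, against 34.1% for Ptpn22 and 13.8% for Cd5. Lat minus Pag1 was 4.43 in log2(TPM + 1), 5.97 over coding transcripts and 3.39 without length correction, and Lck minus Ptpn22 was 2.20, against 2.85 over coding transcripts. Of the 28 pairs, 14 moved by more than 1.5-fold in M4 counts per kilobase, 10 over coding transcripts and 6 without length correction.

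The pairs in which the brake was higher were those of Zap70 and of Rasgrp1. Zap70 minus Ptpn6 was -0.68 ± 0.10 and Rasgrp1 minus Dgkz was -0.66 ± 0.20 in log2(TPM + 1) (SD, n = 3 each). Zap70 minus Ubash3a was -0.39 ± 0.04 (SD, n = 3), or 172 against 224 mean TPM. Over coding transcripts Zap70 minus Ubash3a turned to 1.19, and in M4 counts per kilobase to 0.24. Ubash3a had 54.4, 62.1 and 59.5 coding TPM in libraries 1, 2 and 3.

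Over coding transcripts the 3 pairs that were not apart also changed. Ptpn6 exceeded Ptpn22 by 1.00 and Bcl10 exceeded Malt1 by 1.07 in log2(TPM + 1). Cd5 minus Cd6 turned to 0.46, against -0.08 ± 0.03 over all transcripts (SD, n = 3). Stim1 and Stim2 were no longer apart, at 0.11.

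**Figure D4:**
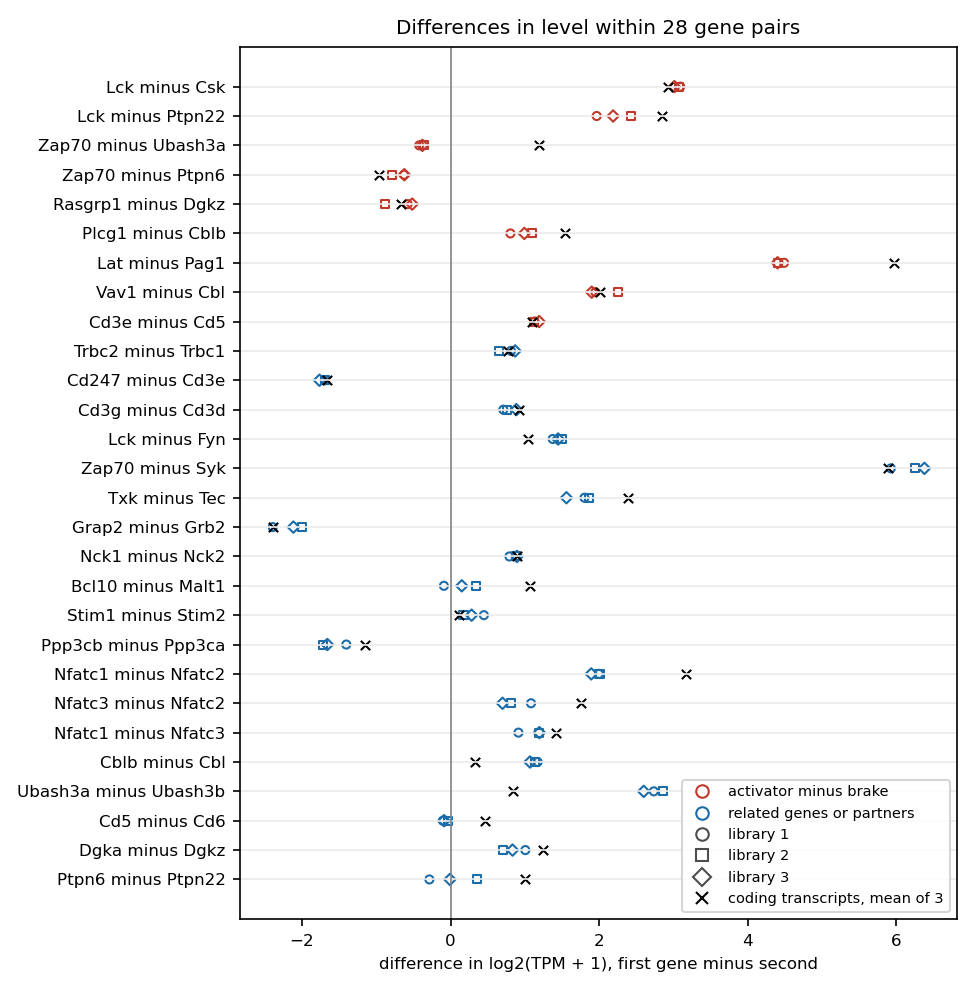
Difference in log2(TPM + 1) within 28 gene pairs, first gene minus second, with 1 open marker per library and a cross for the mean difference over coding transcripts. Lat minus Pag1 and Zap70 minus Syk lie farthest right, and the cross of Zap70 minus Ubash3a stands at 1.19 while its open markers lie between -0.42 and -0.35.

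Other genes of the pathway outside the 49 were read from a pair of lists. All 30 positive regulators were detected, 14 of them at 100 TPM or more, with a median of 88.9 TPM. Among the high ones were Cd2, an adhesion receptor, at 1174 ± 56.1 TPM, the receptor phosphatase Ptprc (CD45) at 997 ± 35.6 TPM and the adaptor Skap1 at 579 ± 53.9 TPM (SD, n = 3 each). The lowest were the inositol trisphosphate receptors Itpr1 at 13.0 ± 2.72 and Itpr3 at 15.1 ± 2.84, the channel subunit Orai3 at 26.3 ± 1.34 and the kinase Mapk3 at 30.6 ± 4.01 TPM (SD, n = 3 each).

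Of 24 negative regulators, 23 were detected and 6 reached 100 TPM, with a median of 45.4 TPM. Sla, an adaptor that lowers receptor levels, was highest at 250.04 ± 36.99 TPM. It was followed by Dok2 at 147 ± 8.13, Sit1 at 124 ± 16.1 and Pstpip1 at 120 ± 7.02 TPM (SD, n = 3 each), all adaptors. The lowest were the Ras inhibitor Nf1 at 1.45 ± 0.62, the calcineurin anchor Akap5 at 1.48 ± 0.39, the ubiquitin ligase Nedd4 at 2.82 ± 0.93 and the anergy ligase Rnf128 at 6.93 ± 0.02 TPM (SD, n = 3 each). In these lists the positive median was above the negative one, the reverse of the order among the 49 genes.

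The libraries themselves differed by more than counting noise in most cascade genes. By a chi-square test of rounded expected counts against Poisson noise, 44 of the 49 genes passed a Benjamini-Hochberg adjusted p of 0.05, against 77.2% of 18253 genes tested. The test compares these libraries and no conditions, and deep counts make small differences pass. Among the 6731 genes that averaged 1000 counts or more, 84.8% passed, as did 42 of the 47 cascade genes at that depth. The median ratio of the highest to the lowest library was 1.13 over these 47 genes and 1.15 over the 6731 genes.

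A ratio of at least 1.5 together with that adjusted p was found for 3 of the 49 genes, against 36.5% of genes tested. Among genes that averaged 1000 counts or more it was 1 of 47 cascade genes, Themis, against 3.33% of 6731 genes. Themis was 1.64 times apart (adjusted p = 1.29e-58, chi-square test), from 2478, 2647 and 1867 counts in libraries 1, 2 and 3. Tec was 1.503 times apart (adjusted p = 3.75e-09, chi-square test), from 411, 448 and 618 counts. Syk was 1.505 times apart (adjusted p = 0.00144, chi-square test). Tec and Syk stand just past 1.5, and without library 3, which holds the salivary transcripts, none of the 49 genes was 1.5 times apart, while 38 still passed the test. Without library 1 it was Themis alone, and without library 2 it was Syk and Tec. With DESeq2 size factors or plain totals, Tec fell short of 1.5. The part of the salivary transcripts in the Themis value was not tested.

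**Figure D5:**
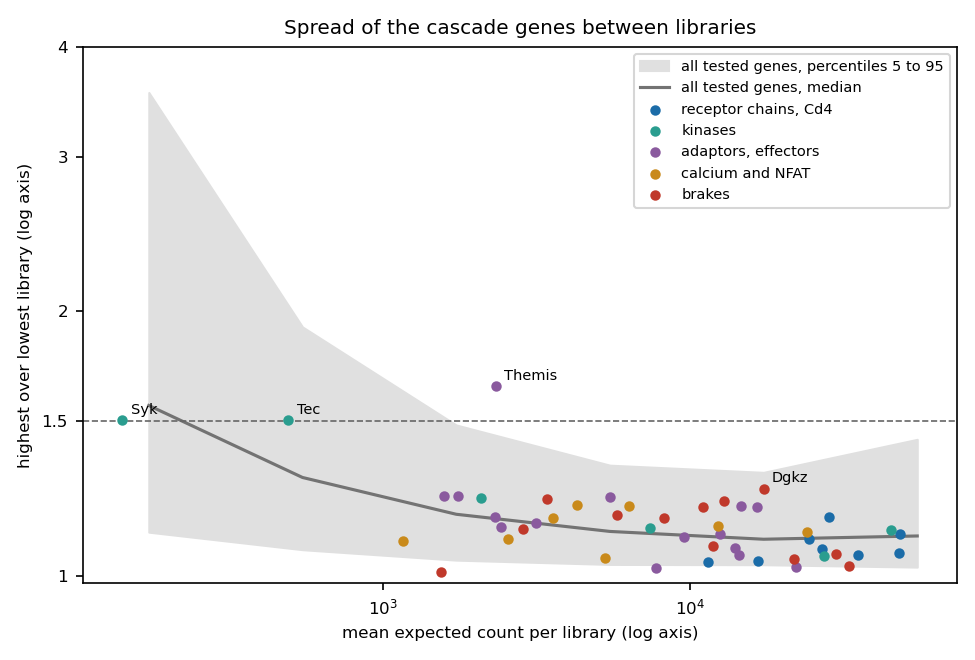
Ratio of the highest to the lowest library for each cascade gene against its mean expected count, both on log axes, over the median (line) and percentiles 5 to 95 (grey) of all tested genes of like count. Themis, at a ratio of 1.64, lies above the grey band, and the other cascade genes lie at 1.505 or below.

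Between libraries, genes of every role were found on both sides. Library 1 was higher than library 2 in 18 of the 49 genes (49.7% of genes tested), and higher than library 3 in 19 (48.5% of genes tested). Library 2 was higher than library 3 in 19 of the 49 genes (49% of genes tested). The median log2 ratio of library 1 over library 2 was -0.065 over the 49 genes and -0.014 over genes tested. That median was -0.066 for activators and -0.048 for brakes. By role, library 1 was the higher one in 2 of 8 receptor genes, 2 of 6 kinases, 6 of 15 adaptors and effectors, 3 of 8 calcium and NFAT genes and 5 of 12 brakes. The largest ratio among brakes was 1.26, for Dgkz, and among receptor chains 1.17, for Trbc1.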

How the data were processed

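RNA of 3 libraries of 1 group was analysed. The deposited gene tables hold expected counts and TPM against GENCODE M21 on mm10, per the file headers and the notes deposited with them. The authors' lower and upper bounds of TPM are signal values on the TPM scale whose level is not stated. They centre on the posterior mean TPM, so the TPM of 37 of the 49 genes lay outside its own bounds in all 3 libraries. The deposited transcript tables give each transcript's percent of its gene's TPM. Deposited M4 tables hold whole-number counts, and 22195 of their 22457 genes matched M21. Gene and effective lengths in bases, another deposited column, differ by 49 bases in every gene with reads. The sources used here do not name the aligner or the counting program. Rows for transfer RNAs and spike-ins took 0.170% to 0.218% of expected counts and stayed out of tests and library sizes.

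Symbols, transcript types and coordinates came from M21, promoters from RefSeq. Rounded expected counts were TMM-scaled in edgeR 4.0.16 (R 4.3.3). Genes averaging 10 counts or more were tested by chi-square against Poisson noise, with Benjamini-Hochberg adjustment over 18253 genes. The test was checked on data simulated with Poisson noise, the noise it assumes, so the check does not cover other variation between libraries. Pairs were compared as log2(TPM + 1) by an exact sign-flip permutation test. A coding transcript is one of type protein_coding or TR_C. Scaling by DESeq2 1.42.0 and the alternatives of the closing section changed 1 choice at a time. Other steps used Python 3.11.15, pandas 2.3.3 and scipy 1.17.1. All 49 genes were named, with the 4 highest and 4 lowest of each other pathway list, except 1 gene that is not reported here. Counts carry no molecular identifiers. Chi-square p-values measure departure of these libraries from counting noise, and sign-flip p-values rest on the differences of a pair over the libraries. Neither covers the spread between mice. Members and lists were chosen with earlier results of these data known.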

Additional observations from a re-analysis of the deposited data

How the results depend on the processing

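All 49 genes stayed detected at a minimum of 0.5 TPM, in posterior mean TPM and without each library, and 48 at a minimum of 5 TPM. The activator minus brake difference of -0.54 became -0.65 in M4 counts per kilobase, -0.24 in scaled counts without length correction, -0.072 with means in place of medians and 0.074 over coding transcripts (added after seeing the data). Without each library it lay between -0.56 and -0.51. The count of pairs apart, in either direction, lay between 23 and 27 under every alternative. The authors' TPM bounds were not applied to M4 counts, to scaled counts without length correction or to coding transcripts. In M4 counts per kilobase, 8 of the 28 pairs changed sign. Apart in TPM were Stim1 minus Stim2 (-0.49), Dgka minus Dgkz (-0.052), Lck minus Ptpn22 (-0.035), Zap70 minus Ubash3a (0.24) and Cd3e minus Cd5 (-0.77). The others were Bcl10 minus Malt1 (-0.37), Cd5 minus Cd6 (0.088) and Ptpn6 minus Ptpn22 (-0.09). Nck1 minus Nck2 (-0.067), Bcl10 minus Malt1 (-0.78) and Ptpn6 minus Ptpn22 (-0.21) turned without length correction. Cd5 minus Cd6 (0.46) and Zap70 minus Ubash3a (1.19) turned over coding transcripts. Ptpn6 minus Ptpn22 (-0.15) also turned without library 2. The cause was not tested. M4 counts called 6272 genes and 28 of the 49 genes, with fewer genes tested, and 2557 genes at least 1.5 times apart. Without a filter, 12281 genes were 1.5 times apart. Without each library, between 9267 and 11076 genes and between 33 and 38 of the 49 genes were called. Of these, between 3777 and 4868 genes and between 0 and 2 of the 49 genes were 1.5 times apart. Of 82 transcript shares, 78 moved by no more than the SD in posterior mean TPM. With DESeq2 size factors or counts per total, Tec was no longer 1.5 times apart. No paired comparison of groups was possible because there is 1 group. Depth limits Syk, at 118 to 185 counts, and transcript shares of Tec, and 1 biosample limits every value to these cells.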

Other observations

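The whole-number counts against the M4 annotation and the expected counts against M21 stood in very unequal proportion over the cascade genes. The M4 count was 1.57% of the expected count for Trbc2, 2.22% for Trbc1, 2.85% for Trac and 3.66% for Cd3e, against 65.5% for Tec, 59.8% for Sos1 and 51.2% for Stim2. The most abundant cascade genes were thus the ones with the lowest proportion. How the M4 table was counted was not given in the sources used here.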
